A study of Mus musculus with 5 samples.

Results

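The nuclear-encoded genes of the mitochondrial respiratory chain were followed across the nuclei of mouse interscapular brown adipose tissue (iBAT). The members are all genes whose symbol starts with Nduf, Uqcr, Atp5 or Cox4 to Cox8, together with Sdha, Sdhb, Sdhc, Sdhd and Cyc1, that held at least 20 UMIs (unique molecular identifiers, 1 per captured transcript) in a matrix. By symbol these are 95 of the 32285 genes listed, and 93 of them passed in each matrix. Cox8c, at 0 UMIs in both, Cox7b2, at 6 UMIs in the WT and Ucp1-STX4KO matrix, and Cox6a2, at 0 UMIs in the aging matrix, fell outside. The members nearest the limit on its inner side were Cox6a2 with 82 and Cox4i2 with 84 UMIs in the first matrix and Cox7b2 with 27 UMIs in the second.

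Single-nuclei RNA sequencing was performed on sorted iBAT nuclei of male mice. One matrix joins WT mice and Ucp1-STX4KO mice, both 3 months old, and the other joins C57BL/6J mice of 2, 12 and 24 months. Ucp1-STX4KO mice carry floxed STX4 alleles and a Cre recombinase under the Ucp1 promoter, so the deletion is limited to cells in which that promoter has been active. There is 1 library per condition. The protocol names 4 mice and does not say whether these stand for each library or for all. A barcode suffix parts the libraries within each matrix, and no label ties a suffix to a condition, so no comparison of genotypes or ages was made and libraries are named by suffix alone. No value below has a replicate check: intervals are exact 95% intervals that cover counting error only, and no p-value is given. Values for the 5 libraries follow one order throughout, namely suffix 1 and suffix 2 of the WT and Ucp1-STX4KO matrix and then suffixes 1, 2 and 3 of the aging matrix.

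The respiratory chain passes electrons from NADH through complex I, or from succinate through complex II, to complex III and then complex IV, which reduces oxygen. The proton gradient built on the way drives ATP synthase, complex V, and in brown adipocytes it is also dissipated as heat by UCP1. Most subunits are encoded in the nucleus and imported, a small core is encoded by the mitochondrial genome, and several nuclear subunits exist as isoforms that differ between tissues.

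The libraries held 76195924, 39857819, 14486189, 19278264 and 20891602 UMIs, with medians of 5998, 3284.5, 891, 1635 and 1719.5 UMIs per barcode. The members took 0.812%, 0.483%, 0.347%, 0.766% and 0.282% of them. Transcripts of the mitochondrial genome took 0.213%, 0.0852%, 3.89%, 12.6% and 6.35%. The share of the members was lowest in aging suffix 3 and highest in suffix 1 of the WT and Ucp1-STX4KO matrix, and the mitochondrial share followed another order. Between 23 and 45 barcode sequences occurred in both libraries of a pair.

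Nuclei were assigned to cell types by fixed marker lists, counting the UMIs of a list without the nucleus' most abundant marker of it. Every sample is labelled as brown adipocytes. In the WT and Ucp1-STX4KO matrix 14798 of 20307 nuclei, 72.9%, passed the adipocyte gate, 10135 in suffix 1 and 4663 in suffix 2. In the aging matrix 1589 of 27842 nuclei passed it, 5.71%, and 16958 passed the endothelial gate, 60.9%, so most gated nuclei of those libraries went against the label. As the gate itself fixes, the 8 adipocyte markers were higher in adipocyte-gated than in the other gated nuclei, with a summed level of 11410.1 to 18588 against 1891 to 3143 counts per 1000000 UMIs (CPM). The other gates together held 1837 nuclei in the first matrix and 21589 in the second. Skeletal muscle nuclei numbered 324 in suffix 2 of the first matrix, 8 in suffix 1 and 0 in the aging matrix. Lymphocyte-gated nuclei of the first matrix rested on 6 of 8 markers, since 2 were at 0. A nucleus that passed several gates was left out, and no doublet caller was run.

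Adipocyte-gated nuclei held the members at a summed 8186, 5229, 6337, 9604 and 6338 CPM, and the other gated nuclei at 5895, 3895, 2781, 7219.8 and 2634 CPM. The adipocyte level was the higher one in all 5 libraries, by 1.39-fold (1.36 to 1.41), 1.34-fold (1.32 to 1.37), 2.28-fold (2.23 to 2.33), 1.33-fold (1.31 to 1.35) and 2.41-fold (2.33 to 2.48). Pooled over suffixes the ratio was 1.61 (1.59 to 1.63) in the WT and Ucp1-STX4KO matrix, above either of its libraries, and 1.79 (1.77 to 1.81) in the aging matrix. Suffix 1 of the first matrix has both more adipocyte-gated nuclei and a higher level in every gate shared with suffix 2, so ratios within libraries are given beside the pooled ones for the members and complexes. Among single nuclei the median was 82.7, 52.0, 64.9, 94.9 and 60.3 member UMIs per 10000 UMIs in the adipocyte gate, and 57.7, 36.4, 23.3, 72.7 and 24.7 in the other gates. The 2 classes differed in depth. The median nucleus held 6246, 4789, 2478.5, 2157 and 2611 UMIs in the adipocyte gate and 3111, 2293, 1378, 1652 and 1703 in the other gates.

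**Figure D1:**
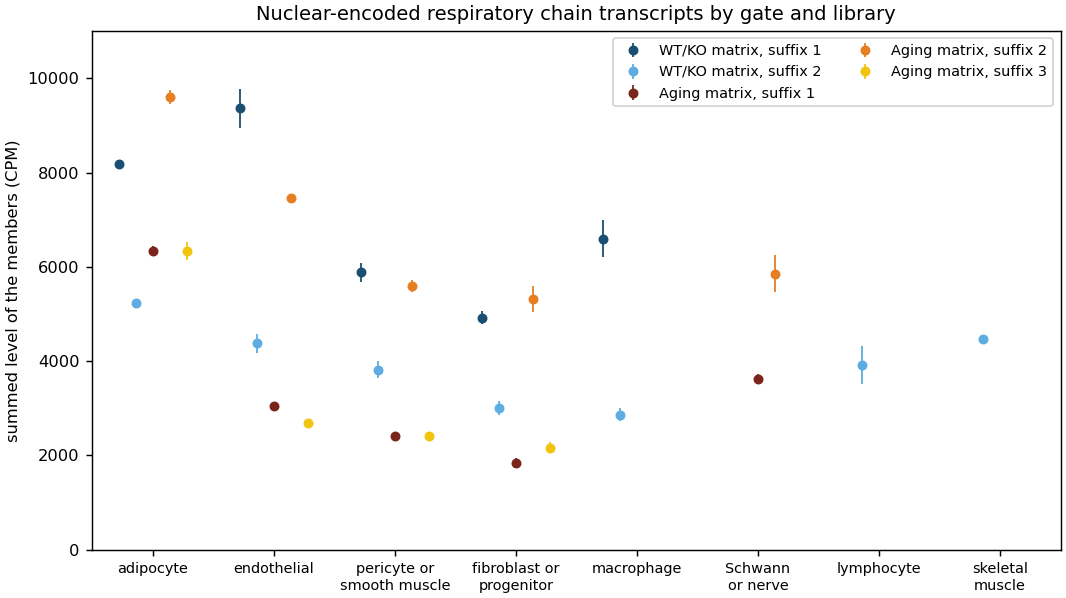
Summed level of the respiratory chain members in CPM (y axis, linear) in each gate (x axis), with 1 point per library of at least 50 gated nuclei and exact 95% Poisson intervals for counting error. Adipocyte-gated nuclei are the highest gate of every library except suffix 1 of the WT and Ucp1-STX4KO matrix, where endothelial-gated nuclei read 9363 CPM against 8186 CPM.

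The order of cell types was not the same in all libraries. Endothelial-gated nuclei exceeded adipocytes in suffix 1 of the WT and Ucp1-STX4KO matrix, where the ratio of adipocyte to endothelial level was 0.874 (0.837 to 0.914) over 72 endothelial nuclei. In the other libraries that ratio was 1.19 (1.14 to 1.25), 2.07 (2.01 to 2.13), 1.29 (1.27 to 1.31) and 2.36 (2.28 to 2.44). Fibroblast or progenitor nuclei held the lowest level of the types with at least 50 nuclei in suffix 1 of the first matrix and in all 3 aging libraries, at 4925, 1841, 5321 and 2157 CPM. In suffix 2 of the first matrix macrophages were the lowest, at 2863 CPM (2722 to 3009), with an interval that overlaps that of fibroblasts, 3010.4 CPM (2867 to 3159). Pericyte or smooth muscle nuclei read 5883, 3815, 2419, 5601 and 2411 CPM, and in suffix 2 of the aging matrix their interval overlaps that of the fibroblasts. Schwann or nerve nuclei were nearest to adipocytes in suffix 1 of the aging matrix, where adipocytes were 1.75-fold higher (1.69 to 1.8). Skeletal muscle, a tissue rich in mitochondria, held 4461 CPM in suffix 2, and adipocytes of that library exceeded it by 1.17-fold (1.14 to 1.2).

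Ucp1, which only brown and beige adipocytes are known to express, was also found outside the adipocyte gate. Ucp1 stood at 1021, 819, 1108, 1780.4 and 579 CPM in adipocyte-gated nuclei. In endothelial-gated nuclei it stood at 422, 404, 112, 243 and 46.7 CPM, in fibroblast or progenitor nuclei at 279, 196, 1.62, 98.5 and 25.7 CPM, and in pericyte or smooth muscle nuclei at 370.1, 307, 36.8, 153 and 25.5 CPM. All these values were below the adipocyte value of their library, and the lowest, in fibroblast or progenitor nuclei of aging suffix 1, came from 1 UMI, with an interval of 0.0411 to 9.04 CPM. The mitochondrial genome, whose transcripts are made outside the nucleus, was at a higher level in the other gated than in adipocyte-gated nuclei of all 5 libraries, with adipocyte over other ratios of 0.488, 0.434, 0.376, 0.754 and 0.788. Cytosolic ribosomal protein genes went the same way, at 0.739, 0.811, 0.428, 0.725 and 0.776. The part of these in the level of the members was not tested.

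Member by member, most ratios lay above 1. In the WT and Ucp1-STX4KO matrix the median member was 1.55 times as high in adipocyte-gated as in other gated nuclei, against 0.937 over all 18238 genes with a ratio, and within its libraries 1.27 against 0.825 and 1.27 against 0.782. The aging matrix gave 1.68 against 1.05, and within libraries 2.07 against 1.06, 1.3 against 1.13 and 2.38 against 1.53. Above 1 were 70 of 93, 75 of 93, 85 of 92, 80 of 93 and 85 of 93 members, beside 40.4%, 36.7%, 53%, 56.3% and 66.5% of all genes.

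Pooled over suffixes, 51 of 93 members (54.8%) were at least 1.5-fold higher in adipocyte-gated nuclei of the WT and Ucp1-STX4KO matrix, where 24.2% of all genes were. In the aging matrix 64 of 93 (68.8%) were, beside 31.8% of all genes. Asking for the same fold in every library left 14 of 93 (15.1%), beside 10.7% of all genes, and 23 of 92 (25%), beside 20.6% of all genes, so these shares were near the background. At least 1.5-fold lower were only 4 members in the first matrix and 3 in the second, where 36.2% and 31.7% of all genes were, and both numbers stayed the same when every library had to show it, beside 31.1% and 14.9% of all genes. Within single libraries 31, 21, 66, 26 and 78 members were at least 1.5-fold higher, beside 21.4%, 17.7%, 33.7%, 35.7% and 50.5% of all genes. The share of members, 28% in aging suffix 2, was thus below that of all genes in this library and above it in the other 4. On the low side stood 4, 5, 4, 3 and 3 members, beside 41.5%, 43.3%, 31.5%, 25.2% and 20.2% of all genes. The count of the first matrix depended on the gate, since with a stricter one, asking for double the marker UMIs, 21 of its 93 members were higher beside 24.9% of all genes. The members lower in the pooled matrices were Ndufa4l2, Cox4i2 and Atp5g1 in both matrices and Cox6a2 in the first.

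**Figure D2:**
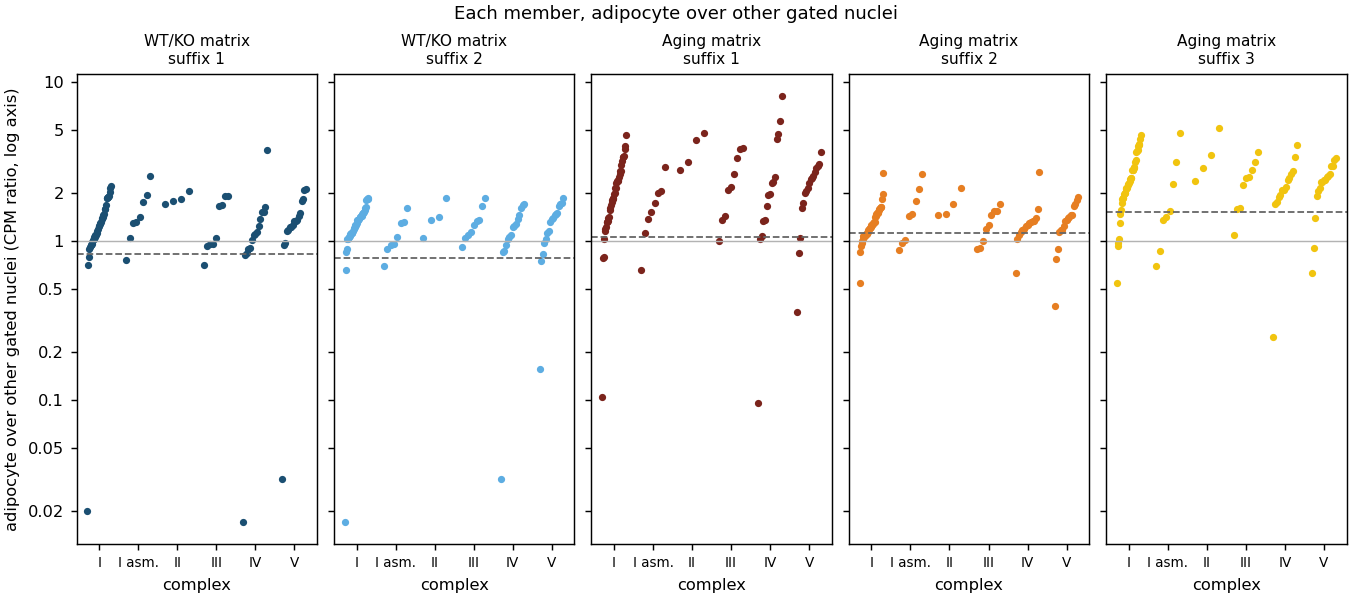
CPM ratio of adipocyte-gated over other gated nuclei (y axis, log scale) for each member with at least 20 UMIs over both classes, sorted within complexes I, I assembly factors, II, III, IV and V (x axis), in 1 panel per library. The dashed line is the median of all genes, from 0.782 to 1.53, and the few points far below it are Ndufa4l2, Cox4i2, Cox6a2 and Atp5g1.

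Every complex was higher in adipocyte-gated nuclei in all 5 libraries, with intervals above 1. Complex II, succinate dehydrogenase, which also belongs to the tricarboxylic acid cycle, had ratios of 1.83, 1.31, 3.24, 1.64 and 3.07, the highest of the 6 classes in suffix 1 of the first matrix and in all 3 aging libraries. Complex V had ratios of 1.51, 1.42, 2.39, 1.37 and 2.34, and complex I 1.44, 1.37, 2.15, 1.33 and 2.5. Complex III had 1.29, 1.41, 2.42, 1.25 and 2.33. For complex IV, cytochrome c oxidase, they were 1.13 (1.09 to 1.18), 1.24 (1.19 to 1.29), 2.18, 1.26 and 2.24, the lowest class of suffix 1 of the first matrix. The Ndufaf genes, which help to build complex I and are not part of it, had 1.47, 1.14, 1.81, 1.45 and 1.93.

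**Figure D3:**
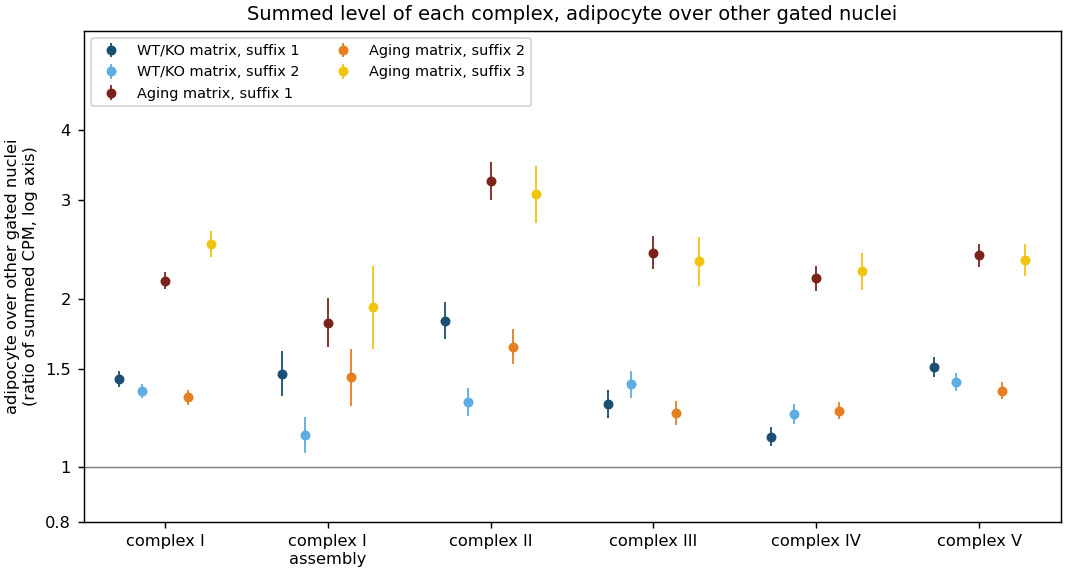
Ratio of the summed CPM of each complex in adipocyte-gated over other gated nuclei (y axis, log scale), with 1 point per library and exact 95% intervals for counting error. All points lie above 1, from 1.13 for complex IV in suffix 1 of the WT and Ucp1-STX4KO matrix to 3.24 for complex II in suffix 1 of the aging matrix.

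In complex I, the NADH dehydrogenase, 22 of 39 members passed 1.5-fold on the high side in the pooled WT and Ucp1-STX4KO matrix, beside 24.2% of all genes, and 25 of 39 in the pooled aging matrix, beside 31.8%. In every library of a matrix 6 and 11 of 39 did, beside 10.7% and 20.6% of all genes. These shares over all genes also stand beside the counts of the other complexes. The core iron-sulfur subunit Ndufs1 stood at 271, 207, 192, 175 and 153 CPM in adipocyte-gated and at 126, 147, 60.6, 88.3 and 48.5 CPM in other gated nuclei. Ndufs3, another core subunit, read 145, 98.4, 153, 118 and 95.7 CPM against 65.2, 64.8, 33, 44.1 and 24 CPM. For both genes the lowest adipocyte value lay above the highest value of the other nuclei. The ratio of Ndufs3 was 2.04 (1.84 to 2.27) in the first matrix and 3.98 (3.6 to 4.39) in the aging matrix, the highest of the 76 members there with at least 200 UMIs and the same direction in every library. The accessory subunits Ndufs4, at 369, 284, 321, 217 and 228 CPM against 194, 226, 161, 119 and 106 CPM, and Ndufb3, with ratios of 2.02, 1.88, 3.97, 1.64 and 3.73, were higher in all libraries too. Ndufv3 led the first matrix at 2.67 (2.24 to 3.21), although within its libraries the ratio was 1.87 and 1.83.

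Some small accessory subunits had ratios near or below 1 in several libraries. Ndufb11 read 23.6, 9.08, 21.9, 42.3 and 21.3 CPM in adipocyte-gated and 29.8, 13.9, 21.2, 49.2 and 14.3 CPM in other gated nuclei, so the classes overlap. Its ratio was 1.02 (0.839 to 1.24) pooled over the first matrix but 0.792 (0.61 to 1.05) and 0.655 (0.484 to 0.902) within its libraries. Ndufa2 had ratios of 0.922, 0.85, 0.784, 1.03 and 2 and Ndufa1 of 0.939, 0.898, 0.789, 0.995 and 2.46, so both were below 1 in the libraries of the first matrix and near 2 or above in aging suffix 3. Pooled they were above 1, at 1.15 (0.967 to 1.37) and 1.15 (0.949 to 1.4) in the first matrix and 1.13 (0.986 to 1.28) and 1.14 (0.943 to 1.38) in the aging matrix, with intervals that include 1. Ndufb8, a subunit often used in antibody panels for complex I, had 0.951 (0.816 to 1.12), 1.42 (1.14 to 1.8), 2.39, 1.08 and 2.51. Among the assembly factors, Ndufaf4 stood at 161, 126, 107, 61.2 and 92.6 CPM against 91.4, 97, 36.3, 23.3 and 19.3 CPM. Its ratios, 1.76, 1.3, 2.95, 2.63 and 4.8, were above 1 in all libraries, while Ndufaf2, the next most abundant in adipocyte-gated nuclei of the first matrix, had 1.3, 1.32, 1.12, 1.01 and 0.862. Ndufaf5 had 0.963 (0.774 to 1.21) in suffix 2 of the first and 0.976 (0.605 to 1.5) in suffix 2 of the aging matrix.

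All 4 genes of complex II had ratios above 1 in every library. The flavoprotein Sdha stood at 321, 229, 259, 254 and 219 CPM against 181, 162, 91.9, 171 and 91.4 CPM, with no overlap between the classes. Sdhb, the iron-sulfur subunit, read 134, 88.6, 119, 119 and 123 CPM against 78, 65.3, 27.5, 55.3 and 23.8 CPM, again without overlap, and its ratio in the aging matrix was 3.39 (3.06 to 3.75). The membrane anchors Sdhc and Sdhd had ratios of 2.06, 1.05 (0.945 to 1.16), 3.13, 1.72 and 3.5, and of 1.85, 1.87, 4.82, 1.45 and 2.87.

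In complex III, which hands electrons to cytochrome c, 4 of 9 members passed the fold in the first matrix when pooled and 2 in every library, and 6 and 3 of 9 in the second. The core protein Uqcrc2 stood at 174, 158, 168, 160.5 and 139.7 CPM against 90.3, 85, 50.7, 94.1 and 49.6 CPM, and Uqcrc1, the other core protein, had ratios of 1.91, 1.67, 3.85, 1.55 and 3.15. Cyc1, cytochrome c1, had 1.67, 1.13, 3.8, 1.54 and 3.62, the highest ratio of the complex in aging suffix 3, and Uqcrc1 or Uqcrc2 had the highest in the other 4 libraries. Uqcrh, the hinge subunit and among the 3 members of the complex with most adipocyte UMIs in the first matrix, had ratios of 1.69, 1.36, 2.09, 1.45 and 2.24. Uqcrc2 was nearly level among adipocyte-gated nuclei of all libraries and differed more in the others. The small subunit Uqcr10 read 60.5, 29.9, 36.6, 98.6 and 44 CPM against 65.2, 32.8, 27, 98.2 and 27.8 CPM, with a pooled ratio of 1.19 in both matrices and values of 0.928 (0.778 to 1.12) and 0.912 (0.753 to 1.11) in the libraries of the first. Cycs, the gene of cytochrome c itself and not a member, had ratios of 1.35, 1.58, 3.71, 1.5 and 1.99.

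Complex V had 11 and 13 of 17 members past the fold on the high side when suffixes were pooled, and 3 and 4 in every library. The subunits Atp5a1 and Atp5b had ratios of 2.13, 1.74, 3.62, 1.66 and 2.98, and of 1.5, 1.5, 2.57, 1.36 and 2.15. Atp5a1 stood at 346, 211, 240.7, 375 and 246 CPM in adipocyte-gated and at 163, 122, 66.5, 226 and 82.5 CPM in other gated nuclei, and only its value in suffix 2 of the first matrix fell under the highest value of the other class. The stalk subunit Atp5f1 read 197, 168, 168, 147 and 109 CPM against 108, 102, 54.9, 86.5 and 41.4 CPM.

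The c subunit of complex V, which forms its rotating ring, is encoded by Atp5g1, Atp5g2 and Atp5g3, whose mature proteins are the same, and low Atp5g1 expression is a known trait of brown fat. Atp5g3 was at 118, 62, 85.5, 109 and 51.6 CPM in adipocyte-gated and at 56.5, 33, 28.8, 59.7 and 22 CPM in other gated nuclei. Atp5g1 went the other way, at 0.294, 1.13, 4.07, 4.29 and 7.59 CPM against 9.24, 7.2, 11.4, 11 and 12.1 CPM. Its adipocyte values, from 21, 30, 8, 7 and 5 UMIs, were lower in all 5 libraries, and only the value of suffix 3 lay above any value of the other class. The ratio was 0.0318, 0.156, 0.358, 0.39 and 0.629 (0.202 to 1.49), with an interval that includes 1 only in the last of these libraries. Pooled over suffixes it was 0.0659 (0.0432 to 0.101) in the first and 0.407 (0.246 to 0.635) in the aging matrix. Among UMIs of the 3 genes, Atp5g1 made 0.17%, 1.13%, 3.14%, 2.39% and 7.81% in adipocyte-gated and 8.18%, 9.28%, 17.5%, 9.17% and 22.4% in other gated nuclei. It read 37.5 CPM (16.2 to 73.9) in the 72 endothelial-gated nuclei of suffix 1 of the first matrix, from 8 UMIs, 24.5 CPM (17.5 to 33.4) in Schwann or nerve nuclei of aging suffix 1, and 12.6 CPM (7.67 to 19.4) in skeletal muscle.

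Complex IV had 7 and 11 of 16 members past the fold on the high side when suffixes were pooled, and 2 of 16 and 1 of 15 in every library. Cox4i1, the common form of subunit 4, stood at 231, 131, 148, 353 and 137 CPM against 151, 90.1, 63.8, 282 and 79.9 CPM, with ratios of 1.53, 1.45, 2.31, 1.25 and 1.71. Cox5a had ratios of 1.52, 1.62, 4.72, 1.34 and 2.5. Cox7c, among the 3 most abundant members there by the same measure, had 1.02 (0.916 to 1.15), 1.25 (1.11 to 1.41), 1.94 (1.68 to 2.24), 1.33 (1.2 to 1.46) and 2.09 (1.66 to 2.6), so in suffix 1 of the first matrix its interval includes 1. Cox6c read 134, 57.8, 80.4, 227 and 114 CPM against 159.6, 61.3, 59.5, 199.9 and 54.5 CPM, so it was lower in adipocyte-gated nuclei of suffix 1 of the first matrix, at 0.84 (0.75 to 0.943), and higher in the aging libraries. The levels of Cox4i1 and Cox6c in suffix 2 of the aging matrix exceeded those of all other libraries in both classes.

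Several subunits of complex IV have a second gene whose expression differs between tissues. Ndufa4l2, a paralogue of Ndufa4 that is induced by hypoxia, was a pericyte and smooth muscle transcript in every library. The symbol places both in complex I, although NDUFA4 is now counted with complex IV. Ndufa4l2 stood at 55.8, 63.5, 56.8, 58.7 and 60.6 CPM in pericyte or smooth muscle nuclei and at 0.42, 0.15, 3.05, 6.12 and 6.07 CPM in adipocyte-gated nuclei. The 5 mural values were alike within their intervals, although these libraries differed by more than that in the summed level of all members. Relative to all other gated nuclei, adipocytes included, the ratio was 107 (64.9 to 175), 238 (106 to 602), 11.3 (7.88 to 16.5), 9.64 (7.07 to 13.1) and 12.2 (9.19 to 16.2). Pooled it was 132 (88.8 to 198) in the WT and Ucp1-STX4KO matrix, from 62 mural and 46 other UMIs, and 10.7 (9.11 to 12.7) in the aging matrix, from 451 mural UMIs. Under the study's full filter on nuclei the first of these was 33.2, and with nuclei thinned to 500 UMIs it was 50.2. Ndufa4l2 made 44.6%, 59.2%, 83.2%, 46.1% and 80.3% of the joint UMIs of both genes in mural nuclei, against 0.466%, 0.333%, 6%, 4.93% and 9.76% in adipocyte-gated nuclei.

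Cox4i2, the form of subunit 4 linked to oxygen sensing in lung and vessels, was also higher in mural than in all other gated nuclei of every library. It stood at 54.1, 32.8, 31.2, 38.9 and 33.2 CPM in pericyte or smooth muscle nuclei and at 0.322, 0.075, 1.53, 4.29 and 1.52 CPM in adipocyte-gated nuclei. In endothelial-gated nuclei it read 0 UMIs in both libraries of the first matrix and 4.8, 3.32 and 2.65 CPM in the aging libraries. The ratio of mural to all other gated nuclei, adipocytes included, was 141 (82 to 242), 328 (92.8 to 1768), 12.7 (7.66 to 22.5), 11.3 (7.56 to 16.8) and 12.5 (8.46 to 18.5), the second of these from 3 UMIs outside mural nuclei. Pooled it was 149 (92.4 to 242) and 11.3 (9.06 to 14.3). Of the joint UMIs of Cox4i1 and Cox4i2, Cox4i2 made 29.1%, 31.9%, 44.8%, 16.5% and 39.4% in mural nuclei.

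**Figure D4:**
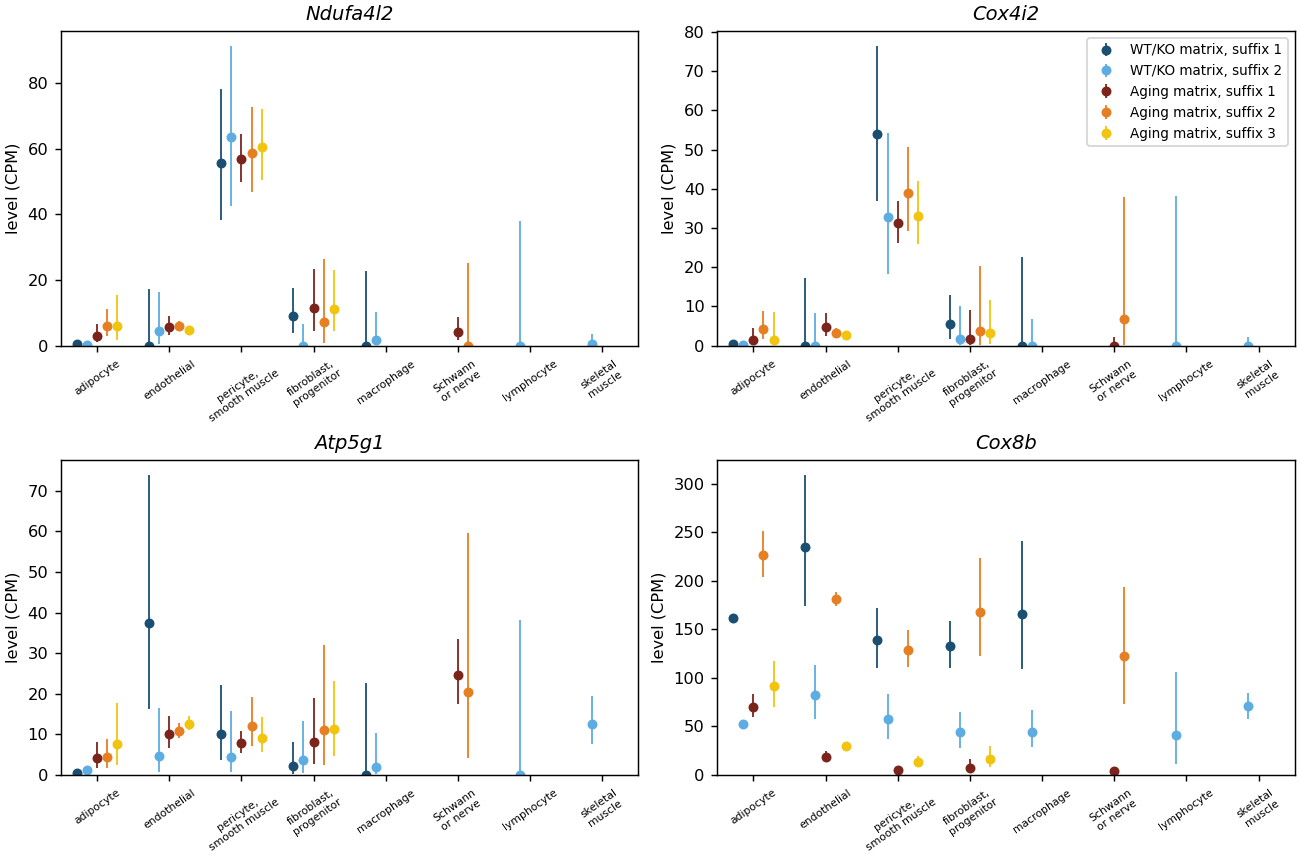
Level in CPM (y axes, linear, each from 0) of Ndufa4l2, Cox4i2, Atp5g1 and Cox8b in each gate (x axes), with 1 point per library of at least 50 gated nuclei and exact 95% Poisson intervals. Ndufa4l2 reads 55.8 to 63.5 CPM in pericyte or smooth muscle nuclei of all 5 libraries, while Cox8b is spread over all gates of 3 libraries.

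Cox6a2, the heart and skeletal muscle form of subunit 6a, was found where muscle nuclei were. In suffix 2 of the first matrix it held 48 UMIs in 324 skeletal muscle nuclei, 30.1 CPM (22.2 to 39.9), and 11 UMIs in 4663 adipocyte-gated nuclei, 0.413 CPM. The ratio of muscle to the other gated nuclei of that library was 72.4 (37.9 to 150). In the aging matrix, with no gated muscle nucleus, it was at 0 UMIs, which in the adipocyte-gated nuclei of suffix 1 allows a level of up to 1.88 CPM. Cox6a1, the common form, had adipocyte over other ratios of 1.1, 1.38, 1.67, 1.24 and 2.41.

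Cox7a2, the common form of subunit 7a, had ratios of 0.886, 1.22, 1.08, 1.03 and 1.77, and Cox7a2l, which takes part in joining complexes III and IV, of 1.65, 1.7, 1.98, 1.41 and 1.9. Cox6b1 had 1.24, 1.7, 2.55, 1.35 and 2.77 and Cox7b 1.38, 1.03, 4.42, 1.59 and 2.19, all above 1. Cox6b2, known from testis, was low in both classes, at 1.93, 1.13, 3.56, 4.29 and 0 CPM in adipocyte-gated and 0.513, 1.07, 3.46, 1.58 and 0.695 CPM in other gated nuclei. Its adipocyte values in the aging libraries came from 7, 7 and 0 UMIs. In pericyte or smooth muscle nuclei it made 2.27%, 0%, 20.5% (13.5 to 29.2), 4.9% and 11.5% of the joint UMIs of Cox6b1 and Cox6b2, from 1, 0, 23, 7 and 6 UMIs. The shares in adipocyte-gated nuclei were 1.77%, 1.33%, 4.29%, 2.28% and 0%.

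Cox7a1 and Cox8b, isoforms typical of heart, muscle and brown fat, were spread over the gates. Cox8b read 161, 52.2, 70.2, 227 and 91.1 CPM in adipocyte-gated and 148, 61.3, 8.55, 175 and 26.9 CPM in other gated nuclei. The 2 classes were near each other in 3 libraries, with ratios of 1.09 (0.967 to 1.23), 0.852 (0.741 to 0.984) and 1.3 (1.16 to 1.45) in both suffixes of the first matrix and suffix 2 of the aging matrix, and apart in aging suffixes 1 and 3, at 8.21 (6.18 to 11) and 3.38 (2.54 to 4.43). Cox7a1 behaved alike, with 0.813 (0.685 to 0.972), 0.861 (0.674 to 1.11), 5.66 (3.73 to 8.65), 1.19 (0.977 to 1.44) and 4.04 (2.59 to 6.06). Cox8b made 42.2% to 58.7% of the joint UMIs of Cox8a and Cox8b in adipocyte-gated nuclei. In the libraries where the classes were close, endothelial nuclei had shares of 51.5%, 48% and 56.5%, and in aging suffix 1 Schwann or nerve nuclei had 3.49% (1.29 to 7.44).

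For each UMI of Ucp1, adipocyte-gated nuclei held 0.158, 0.0638, 0.0634, 0.127 and 0.157 UMIs of Cox8b, and endothelial-gated nuclei 0.556, 0.202, 0.162, 0.746 and 0.624. Cidea, another brown adipocyte transcript, gave 1.24, 0.834, 0.841, 0.533 and 1.59 in adipocyte-gated and 1.33, 0.579, 0.884, 0.792 and 1.19 in endothelial-gated nuclei. Cox8b per Ucp1 UMI was thus higher in endothelial-gated nuclei of all libraries, while Cidea was higher there in some and lower in others. Schwann or nerve nuclei of aging suffix 1 held 0.0759 UMIs of Cox8b per Ucp1 UMI, from 6 UMIs, and lymphocyte-gated nuclei of suffix 2 of the first matrix 0.125, from 4 UMIs. The part of carried-over RNA in these values was not tested.

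**Figure D5:**
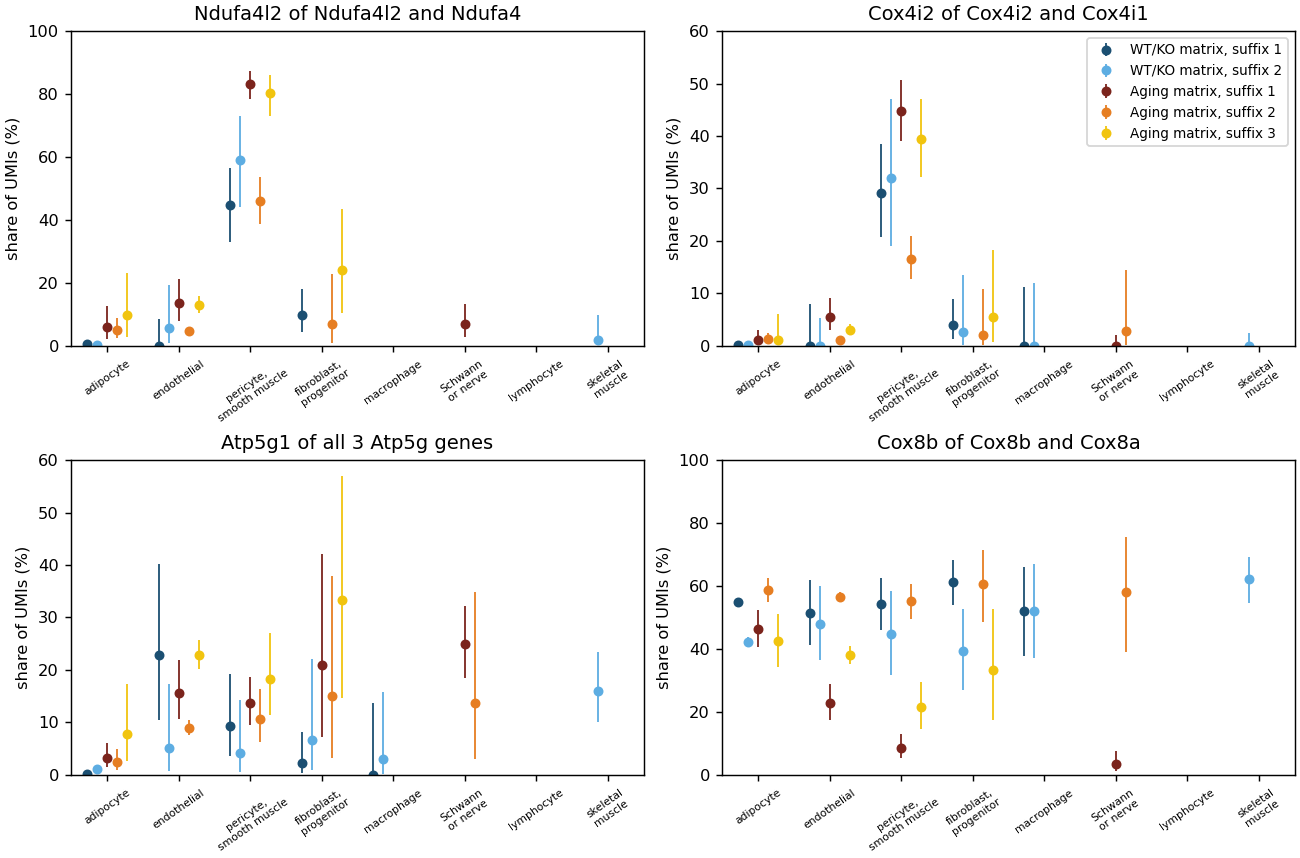
Share in percent (y axes) of 1 isoform among the joint UMIs of its family in each gate (x axes), for gates with at least 20 such UMIs and 50 nuclei, with 1 point per library and exact 95% binomial intervals. Ndufa4l2 makes 44.6% to 83.2% in pericyte or smooth muscle nuclei, Atp5g1 makes 0.17% to 7.81% in adipocytes, and Cox8b runs from 3.49% in Schwann or nerve nuclei of aging suffix 1 to 62.2% in skeletal muscle.

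Promoter sequences from 250 bases before to 50 after the annotated start were at hand for 75 of the 95 genes (RefSeq, GRCm38.p6), and 5 are printed to show widely expressed subunits, Ndufb8 and Sdhb, beside isoform genes, Cox8b, Cox7a1 and Atp5g1. Capitals mark matches, on either strand, to the core letters TGCGCA of an NRF1 site, CGGAAG of an ETS factor site, AAGATGG of a YY1 site, AAGGTCA of an oestrogen-related receptor site and TATAAA of a TATA box.
Ndufb8, chr19:44555393-44555692, minus strand: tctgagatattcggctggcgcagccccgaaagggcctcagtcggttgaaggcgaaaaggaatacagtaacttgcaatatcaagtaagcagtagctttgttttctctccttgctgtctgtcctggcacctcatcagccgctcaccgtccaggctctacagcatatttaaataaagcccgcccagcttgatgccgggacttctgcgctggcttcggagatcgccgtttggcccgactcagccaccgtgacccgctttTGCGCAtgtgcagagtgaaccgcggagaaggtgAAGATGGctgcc
Sdhb, chr4:140961021-140961320, plus strand: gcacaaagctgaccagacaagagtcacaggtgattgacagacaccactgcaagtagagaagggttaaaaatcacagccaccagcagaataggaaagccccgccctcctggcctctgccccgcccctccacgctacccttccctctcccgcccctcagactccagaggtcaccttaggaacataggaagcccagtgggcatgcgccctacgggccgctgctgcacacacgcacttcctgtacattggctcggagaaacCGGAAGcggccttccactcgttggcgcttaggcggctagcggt
Cox8b, chr7:140900397-140900696, minus strand: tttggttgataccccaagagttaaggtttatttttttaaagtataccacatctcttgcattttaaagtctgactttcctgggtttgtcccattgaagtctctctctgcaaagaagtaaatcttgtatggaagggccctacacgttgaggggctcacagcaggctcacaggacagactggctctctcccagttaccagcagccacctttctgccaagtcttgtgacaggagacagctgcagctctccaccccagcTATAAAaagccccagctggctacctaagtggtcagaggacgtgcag
Cox7a1, chr7:30183921-30184220, plus strand: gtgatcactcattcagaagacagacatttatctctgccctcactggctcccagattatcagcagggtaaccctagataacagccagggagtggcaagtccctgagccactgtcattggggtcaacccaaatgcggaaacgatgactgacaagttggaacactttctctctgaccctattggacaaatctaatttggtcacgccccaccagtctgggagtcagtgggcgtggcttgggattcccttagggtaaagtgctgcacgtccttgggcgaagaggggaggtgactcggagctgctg
Atp5g1, chr11:96075582-96075881, minus strand: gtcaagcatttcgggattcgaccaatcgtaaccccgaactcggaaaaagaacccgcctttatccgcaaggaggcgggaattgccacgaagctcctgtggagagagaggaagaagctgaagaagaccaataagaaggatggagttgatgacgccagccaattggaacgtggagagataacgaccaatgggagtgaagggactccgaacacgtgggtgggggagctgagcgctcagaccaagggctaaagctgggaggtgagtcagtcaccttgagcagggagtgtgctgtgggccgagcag
Ndufb8 held the NRF1 letters from base 6 and the YY1 letters from base 39 of the stretch after the annotated start. Sdhb held the ETS letters from base 8 and Cox8b the TATA letters from base 5 of that stretch. All matches in these promoters thus lay downstream of the annotated start, and whether any of them acts as a site was not tested. Cox7a1 and Atp5g1 held none of the letters searched in this window.
Of the 75 promoters, 24.0% held the NRF1 letters beside 8.06% of 27025 promoters in all, 41.3% the ETS letters beside 17.2%, 13.3% the YY1 letters beside 6.48%, 10.7% the oestrogen-related receptor letters beside 4.66% and 10.7% the TATA letters beside 14.2%. Members with the NRF1 letters had a median adipocyte over other ratio, with suffixes pooled, of 1.62 in the first matrix, against 1.55 for those without, and of 1.63 against 1.67 in the second. In the same order these medians were 1.54 against 1.57 and 1.72 against 1.63 for the ETS letters, and 1.62 against 1.55 and 1.61 against 1.66 for YY1. They were 1.52 against 1.56 and 1.65 against 1.66 for the oestrogen-related receptor letters, and 1.39 against 1.58 and 1.55 against 1.66 for TATA.

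Other genes of the pathway were read from lists of known genes. Of 12 regulators of mitochondrial biogenesis, 8 were at least 1.5-fold higher in adipocyte-gated nuclei of the first matrix and 9 in the aging matrix, and 1, Esrrb, was lower in the first. Within libraries 8, 4, 10, 8 and 9 were higher and 1, 1, 0, 0 and 1 lower, and the shares over all genes are those given with the counts of the members. Esrrb had a pooled ratio of 0.176 in the first matrix, but 3.4 in its suffix 1, from 3 UMIs in other gated nuclei, and 0.0879 in suffix 2. The coactivator Ppargc1b stood at 2949.5, 2051, 2482, 2523 and 2902 CPM in adipocyte-gated and at 357, 384, 141, 126 and 66.4 CPM in other gated nuclei. Esrra, an oestrogen-related receptor that drives respiratory chain genes, had ratios of 3.25, 1.87, 6.47, 6.13 and 11.7. Ppargc1a, its coactivator, read 777 CPM and 11307 CPM in the adipocyte-gated nuclei of suffixes 1 and 2 of the first matrix, and 419.9, 565 and 524 CPM in those of the aging matrix. In other gated nuclei it read 161, 2602, 32.7, 37.9 and 16.7 CPM, so it was far higher in suffix 2 of the first matrix than in the other 4 libraries in both classes. That library had the lowest adipocyte level of the members. Nrf1 was lower in adipocyte-gated nuclei, with ratios of 0.612, 0.796, 0.795, 0.682 and 0.861 (0.708 to 1.04).

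All 13 genes of the tricarboxylic acid cycle, which supplies the chain with NADH and succinate, were at least 1.5-fold higher in adipocyte-gated nuclei of both matrices when suffixes were pooled, and 10, 11, 13, 13 and 13 were within libraries. Their summed ratio was 2.94, 2.35, 5.9, 3.04 and 5.5, above that of the respiratory chain members in all 5 libraries. Of 37 assembly factors outside the members that were tested, 22 and 25 were 1.5-fold higher and none lower when suffixes were pooled. Within libraries 21, 15, 28, 20 and 30 were higher and 0, 3, 1, 1 and 1 lower, with summed ratios of 1.74, 1.3, 2.08, 1.86 and 2.64. The shares over all genes, pooled and within libraries, are those given with the counts of the members. Atpaf2, which helps to assemble complex V, had 3.06, 2.97, 7, 5.24 and 8.4. The 13 protein-coding genes of the mitochondrial genome had none on the high side, and 4 and 10 on the low side. Within libraries 13, 12, 13, 2 and 0 were on the low side. Their adipocyte and other levels were 2046 and 4194 CPM in suffix 1 of the first matrix and 92629 and 122892 CPM in suffix 2 of the aging matrix.

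Most members are short genes, and 64 of 93 in the first matrix span under 10 kb. Their median ratio was 1.16 and 1.22 in its 2 libraries, against 1.67 and 1.45 for the 24 members of 10 to 30 kb and 1.9 and 1.32 for the 5 over 30 kb. All protein-coding genes of the same spans had medians of 0.846 and 0.827, 0.91 and 0.844, and 0.76 and 0.704. In the aging libraries members under 10 kb had 1.84, 1.23 and 2.35 and those of 10 to 30 kb 2.79, 1.51 and 2.45. Members under 10 kb were thus above the median gene of that span in all 5 libraries, and those of 10 to 30 kb were higher still. Of the members, 6 overlap another protein-coding gene on the same strand, among them Cox4i1, Ndufb8 and Atp5o, and their counts are uncertain for that reason.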

How the data were processed

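Single-nuclei RNA was counted in 2 deposited matrices of 5 libraries, 1 per group, so no group has a replicate. The authors made UMI counts per gene and nucleus, and the submitters' processing notes name Cell Ranger 6.1.2, Seurat 4.1.0 and mm10. Whether introns were counted is not given in the sources used here. The values are the deposited counts, with no normalization.

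Nuclei with at least 100 genes and 200 UMIs were kept. A nucleus passed a gate with at least 3 marker UMIs beyond its most abundant marker, at a rate of at least 40 (adipocyte) or 20 (others) per 10000 UMIs. The lists hold 8 markers for adipocytes and 7 or 8 for other types. UMIs were summed per library and gate and written as CPM of all UMIs. Ratios have exact conditional binomial intervals, levels exact Poisson intervals and shares Clopper-Pearson intervals, all at 95%. The ratio interval was tested on simulated Poisson counts, without spread between nuclei, and the gates on simulated nuclei. The intervals of levels and shares were not tested in this way. UMIs of 1 library are not replicates, and no count model or p-value was computed. Genes with at least 20 UMIs in the matrix were compared at 1.5-fold, and a class at 0 UMIs was set to a floor of 3 counts. Named were, per complex, the 3 members with most UMIs in adipocyte-gated nuclei of the WT and Ucp1-STX4KO matrix and, of members with at least 200 UMIs and the same direction in every library, the 5 highest and 5 lowest ratios, together with tissue isoforms and common blot markers. Gene positions came from GENCODE M21. Members, lists, gates and thresholds were chosen with earlier results of these data known, and the gate limits after the marker counts had been seen. The alternatives were the study's upper limits on nuclei, a stricter gate, assignment of nuclei of 2 gates, thinning to 500 UMIs and single suffixes. Others left out the deepest 5% of nuclei, or the mitochondrial genome from the denominator, or weighted cell types equally. Counts of members were also taken at a fold of 2 and with at least 200 UMIs required. Python 3.11.15, numpy 2.4.6, scipy 1.17.1, pandas 2.3.3 and matplotlib 3.10.9 were used.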

Additional observations from a re-analysis of the deposited data

Results flagged for a closer look

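Barcodes outside the comparisons also held the members. The 2158 barcodes of aging suffix 1 under the lower limits, with a median of 130 UMIs, carried them at 6437 CPM (6154 to 6730). Of the UMIs of these barcodes, 49.8% came from the mitochondrial genome. In the same library adipocyte-gated nuclei held the members at 6337 CPM and the other gated nuclei at 2781 CPM, a ratio of 2.28. The part of such RNA in that ratio was not tested. Nuclei that passed no gate numbered 3516 in the WT and Ucp1-STX4KO matrix and 3938 in the aging matrix. They held 5005 CPM and 6248 CPM when pooled. By library, in the order used above, they held 8143, 4062, 3227, 9134 and 3751 CPM. Adipocyte-gated nuclei of the same libraries held 8186, 5229, 6337, 9604 and 6338 CPM. No library serves as a control for the values outside the comparisons.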

How the results depend on the processing

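Of the values that answer a comparison, recomputed under each alternative, 84 stayed, 32 moved and 0 changed direction. A ratio stayed if it lay within the interval of the reported ratio. A count of members or classes stayed if it was within 1.5-fold of the reported count. Such a count cannot change direction under this rule, so only the ratios could have done so. Of the values of single complexes and isoform genes 105 stayed, 96 moved and 4 changed direction. No value has a replicate check, and a suffix stands for 1 library. The summed adipocyte over other ratio of the WT and Ucp1-STX4KO matrix was 1.51 under the study's full filter, 1.34 with the stricter gate, 1.59 with nuclei of 2 gates assigned, 1.65 without the deepest 5% of nuclei, and 1.39 and 1.34 in suffixes 1 and 2 alone. That of the aging matrix, reported as 1.79, was 1.91 under the full filter, 1.99 with the stricter gate, 1.82 after thinning, 1.74 without the mitochondrial genome in the denominator, 2.28, 1.33 and 2.41 in suffixes 1, 2 and 3 alone, and 2.08 with cell types weighted equally. Members at least 1.5-fold higher in the first matrix numbered 21 with the stricter gate (24.9% of all genes), 31 and 21 in suffixes 1 and 2 (21.4% and 17.7%), and 7 at 2-fold (14.5%). In the aging matrix they were 66, 26 and 78 in suffixes 1, 2 and 3 (33.7%, 35.7% and 50.5%) and 27 at 2-fold (20.6%). Members lower in the first matrix numbered 0 once 200 UMIs were required, since the 4 lower members hold fewer. Mural over other ratios of Ndufa4l2 in the first matrix were 33.2 under the full filter, 236 with the stricter gate, 50.2 after thinning and 238 in suffix 2. Those of Cox4i2 were 257 with the stricter gate and 328 in suffix 2, and the full filter and thinning gave none, as no UMI was left outside mural nuclei. In the aging matrix Ndufa4l2 gave 7.51, 14.4 and 8.0004 under those 3 alternatives and 8.60 without the deepest nuclei, and Cox4i2 6.15 under the full filter. Of the isoform genes recomputed, those reversed within libraries of the first matrix were Cox7a1, at 0.813 and 0.861, Cox7a2, at 0.886 in suffix 1, and Cox8b, at 0.852 in suffix 2. Over all members, 19 in suffix 1 and 13 in suffix 2 of that matrix were below 1 while above 1 when pooled, and 3, 8 and 4 in the aging suffixes. The cause was not tested. The full filter left no suffix 1 nucleus in the first matrix. No paired analysis was possible because each group has 1 library and the columns carry no replicate number.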
